A study of Rattus norvegicus with 16 samples.

Results

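N4-acetylcytidine (ac4C) peaks fell mostly in messenger RNA genes, and this account follows the 554 of 11840 peaks that lay in genes coding no protein. They came from 267 of the 5697 genes with a peak in any of 4 ac4C peak lists. A peak was a member where the Ensembl gene that the authors named for it carried a biotype other than protein coding in the deposited expression table. The lists belonged to control library 3 and to knockdown libraries 1, 2 and 3. The cells were primary rat aortic vascular smooth muscle cells of wild type genotype, grown in medium with 20% serum. For the ac4C lists and the RNA without immunoprecipitation, the cells carried an adenovirus for 48 h. It was a control virus in one group and, in the knockdown group, a virus whose short hairpin RNA targets Nat10. Total RNA was cut to fragments of 100 to 200 nt and immunoprecipitated with an antibody against ac4C. RNA without immunoprecipitation (input) was measured in 3 libraries of each group. NAT10-bound RNA was measured in 3 more, for which the labels give no virus time and neither virus group. Separate animals are not named in the labels. The p-values below therefore cover the spread of these libraries alone, which may be technical. Input libraries 2 and 3 of the control group were the closest pair. A chi-square for each gene, larger where 2 libraries differ more, had a median of 0.76 between them. The other pairs of input libraries ran from 3.65 to 12.3. Whether these 2 controls are separate samples was not tested. If they are not, the control spread, the p-values and the group overlaps below rest on fewer than 3 independent controls.

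NAT10 is the acetyltransferase that places ac4C on RNA. Its long-known substrates are noncoding: the RNA of the small ribosomal subunit and the transfer RNAs for serine and leucine. Genes that code no protein include the stable small RNAs that splice, translate and export, the long noncoding RNAs, and pseudogenes, which are copies of genes that have lost their reading frame and often still match the parent gene closely. The sources used here do not say how reads matching several copies were assigned, so values of pseudogenes and of multicopy small RNA genes are uncertain.

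Nat10 itself, the target of the hairpin, stood at 7.69, 9.22 and 9.95 FPKM (fragments per kilobase of gene, on the authors' own scale between libraries) in control libraries 1 to 3. After knockdown it read 4.38, 3.68 and 4.58 FPKM, below all controls. The input libraries held 6420134 to 12069612 recovered fragments. Smooth muscle markers were at 1 FPKM or more for 8 of 8 genes, and their summed level ran from 5012 to 7060 FPKM in control libraries and from 917 to 3716 FPKM after knockdown. Of 5 endothelial markers measured, 0 reached 1 FPKM, and Cldn5 was listed at 0. Of 5 leukocyte markers 1 reached 1 FPKM, and Cd3e was listed at 0. The 5 fibroblast markers summed to 86.8 to 94.4 FPKM in control libraries and 30.3 to 58.2 FPKM after knockdown. In bulk samples fewer cells of a type and less RNA per cell cannot be told apart.

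The control side of every list comparison was 1 library. Control lists 1 and 2 were not among the lists that the rule for members names. Of their peaks, 26881 of 29998 and 27673 of 29593 shared 1 p-value each, 0.045 and 0.046. Peaks at the shared p fell in noncoding genes at 31.1% and 30.4%, and 77.8% and 78.5% of those lay in genes listed at 0 FPKM. The other peaks of these control lists fell in noncoding genes at 5.45% and 5.36%, and they served below as a second look at recurrence.

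Between 3.74% and 5.46% of the peaks in a list lay in genes that code no protein. In control list 3 the share was 4.20% (146 of 3479, 95% Wilson interval 3.58 to 4.91%). It was 5.46% (170 of 3111, 4.72 to 6.32%) in knockdown list 1, 5.30% (141 of 2658, 4.52 to 6.22%) in knockdown list 2 and 3.74% (97 of 2592, 3.08 to 4.54%) in knockdown list 3. The control share lay inside the range of the knockdown shares. The intervals cover counting error only, and with 1 control list against 3 the smallest two-sided exact p is 0.5, so no test was made. Among peaks with an authors' p of at most 0.001 the knockdown shares spread further, to 5.74%, 6.78% and 2.77%, around 4.26% in control list 3.

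Pseudogenes made up the largest class, with 260 peaks in 117 genes. Short noncoding RNA genes held 152 peaks in 69 genes, long noncoding RNA genes 130 peaks in 75 genes, and the ribosomal RNAs of the mitochondrion 8 peaks in 2 genes. The remaining 4 peaks lay in 4 genes of the biotype TEC, models that await experimental support. Knockdown list 3 was lowest for pseudogenes (40 peaks against 66 in control list 3) and for short RNA genes (26 against 39). Knockdown list 2 was lowest for long noncoding genes (24 against 37). By single biotype, the table's pseudogene held 149 peaks, processed pseudogene 104, lincRNA 82, misc_RNA 67, snRNA 42, processed transcript 36 and snoRNA 20. The biotype miRNA held 7 peaks in 6 genes of 1588 annotated, and these were 106 to 133 nt long, longer than a mature microRNA. No class stood higher or lower in all 3 knockdown lists than in control list 3.

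**Figure D1:**
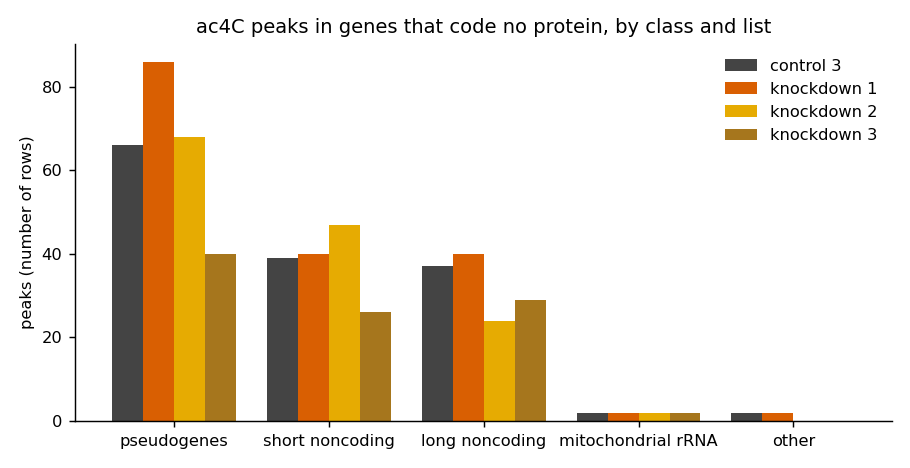
Bars give the number of ac4C peaks (vertical axis, peaks) in each class of genes that code no protein, with 1 bar for each of the 4 lists. Pseudogenes held 66 peaks in control list 3 and 86, 68 and 40 in knockdown lists 1 to 3, so the control bar lies within the knockdown bars.

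Noncoding peaks recurred in all 4 lists as a larger share than coding peaks did. Of the 554 noncoding peaks, 131 (23.6%) overlapped a peak in every list by at least 1 base, against 15.0% of 11286 peaks in protein-coding genes. With an overlap of at least 50% of both peaks the shares were 21.1% and 10.2%. Where any peak of the same gene counted, they lay closer, at 32.1% and 26.6%. These shares describe the same 4 libraries, and the difference was not tested. Peaks in short RNA genes covered a median of 83.7% of the recovered gene (85 peaks with at least 10 fragments). At such a cover, peaks of the same gene overlap wherever they lie, so overlap by position favours short genes. At the level of genes, 141 noncoding genes had a peak in 1 list, 63 in 2, 25 in 3 and 38 in all 4, which is 14.2% of 267 against 9.30% of 5430 coding genes. Of the 131 four-list peaks 127 (96.9%) also overlapped a peak of control list 1 or 2 outside the shared p, and 106 overlapped one in both. Of the 214 noncoding peaks found in 1 list, 43 (20.1%) overlapped a peak of control list 1 or 2. Coding peaks went the same way: 1464 of 1697 found in 4 lists (86.3%) and 770 of 5791 found in 1 list (13.3%) did so.

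Recurrence differed by class. A peak in 4 lists was found for 18 of 69 short RNA genes (26.1%), among them all 4 of the biotype rRNA, and for both mitochondrial rRNA genes. The 18 short RNA genes were copies of few families. Signal recognition particle RNA gave 8, U2 RNA 3, 5.8S rRNA (RF00002) 3, U1 RNA 2, and 7SK RNA and 5S rRNA (RF00001) 1 each. Copies can share reads, so they are not 18 separate cases, here or in the share over all noncoding genes above. Pseudogenes reached 13 of 117 (11.1%) and long noncoding genes 5 of 75 (6.67%), the latter below the 9.30% of coding genes. The authors' p ranked the classes apart within a list. Short RNA genes had a median percentile of 39.4 in control list 3 and of 21.4, 16.6 and 59.0 in knockdown lists 1 to 3, where 0 is the smallest p and 50 the middle of the list. Long noncoding genes had 44.9 in control list 3 and 73.7, 65.0 and 76.4 in the knockdown lists, and pseudogenes 53.5 against 43.6, 41.3 and 73.6. A rank depends on the other peaks of its list, so these values order peaks inside a list and show no change between lists. Merged by overlap, the peaks formed 333 regions, of which 34 held peaks of all 4 lists and 10 of these had identical bounds in each.

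**Figure D2:**
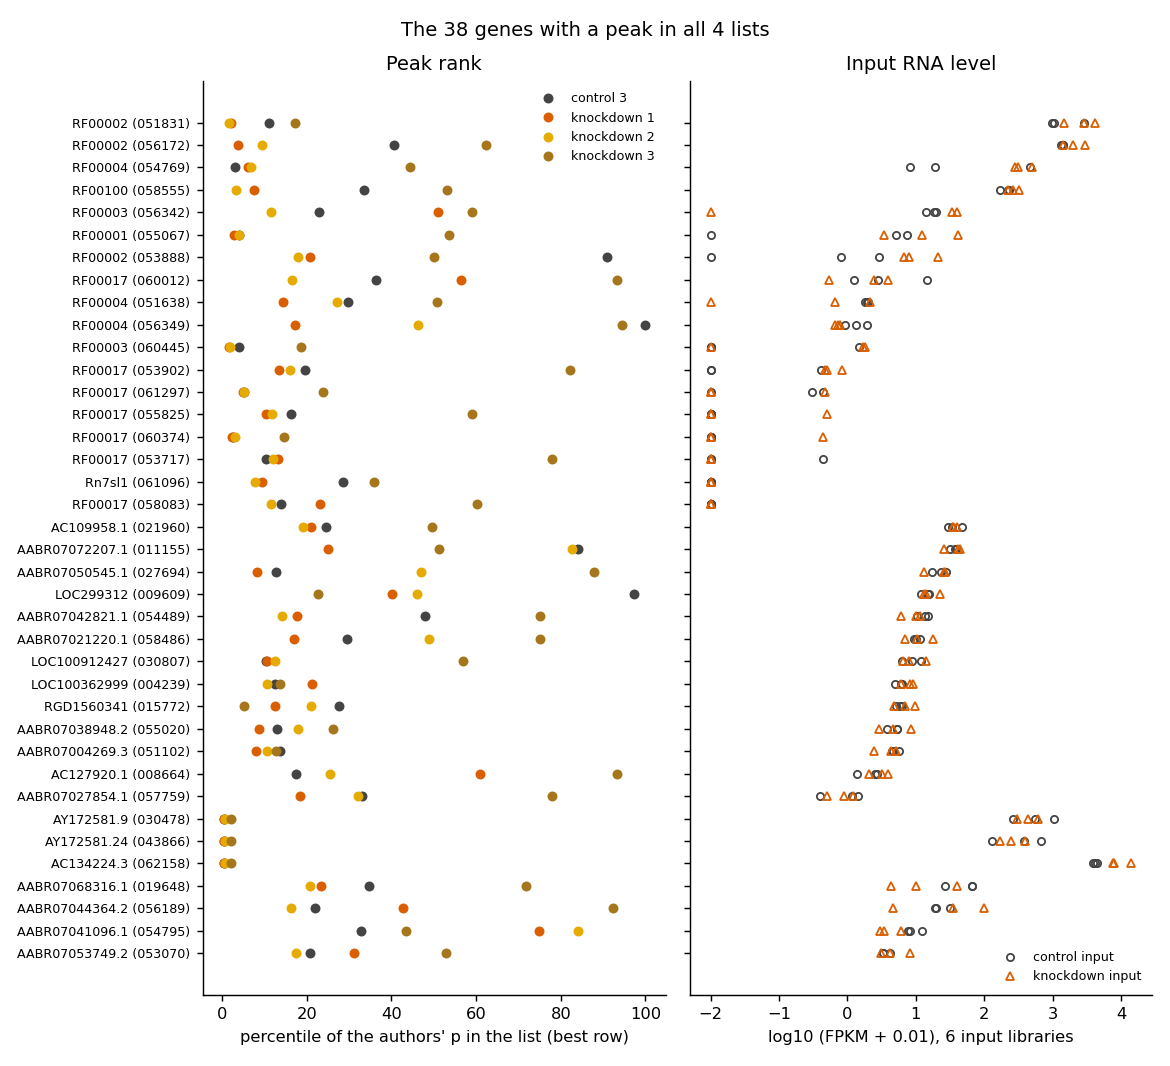
Each row is 1 of the 38 genes with a peak in all 4 lists, named with the last digits of its Ensembl ID. The left panel gives the percentile of the authors' p within each list for the best peak (0 is the smallest p), and the right panel the log10 of FPKM + 0.01 in 3 control (circles) and 3 knockdown (triangles) input libraries. Rn7sl1 and 1 RF00017 gene sit at the left edge of the right panel in all 6 libraries, listed at 0 FPKM, while their peaks rank between 7.8 and 60.1.

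The ribosomal RNAs of the mitochondrion were among the peaks whose p was listed as 0. AY172581.9 (ENSRNOG00000030478) is the small mitochondrial rRNA, and its peak covered chrMT:68-1025, 958 nt, in all 4 lists. AY172581.24 (ENSRNOG00000043866) is the large one, with a peak over chrMT:1094-2664, 1571 nt. The authors listed p as 0 for both genes in all 4 lists, a value that 24, 25, 31 and 101 coding peaks shared in control list 3 and knockdown lists 1 to 3. Each peak spanned the whole recovered gene length. The input level of AY172581.9 was 261, 1052 and 560 FPKM in control libraries and 602, 301 and 440 FPKM after knockdown. AY172581.24 ran at 131, 671 and 376 FPKM against 398, 167 and 244 FPKM. Both genes had their highest and their lowest value in the control group, so the groups overlapped.

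Cytosolic ribosomal RNA genes followed. The 3 genes named RF00002 belonged to the family of the RNA that pairs with the large subunit rRNA. ENSRNOG00000051831 (chr1:11906441-11906593) had a peak of 153 nt with the same bounds in 4 lists and stood at 1036, 2845 and 982 FPKM in control libraries and 4117, 1470 and 2853 FPKM after knockdown. ENSRNOG00000056172 (chr5:91134985-91135137) likewise had identical bounds and stood at 1395, 1330 and 1407 FPKM against 2956, 1425 and 2003 FPKM. In the first gene the groups overlapped, and in the second the lowest knockdown library, at 1425 FPKM, stood just above the highest control, at 1407 FPKM. The RF00001 gene ENSRNOG00000055067, of the family of the smallest ribosomal RNA, had a peak of 119 nt with the same bounds in 4 lists. It rested on few input fragments, 7, 7 and 0 in the controls and 3, 12 and 34 after knockdown.

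RNA of the signal recognition particle, which guides nascent secretory proteins to the endoplasmic reticulum, gave a family with recurrent peaks whose genes were mostly listed at or near 0 FPKM. Its genes are named RF00017 or Rn7sl1, and 11 of 34 had a peak, 8 of them in all 4 lists. Of these 8, 7 had a mean under 1 FPKM, and 3 of the 11 were listed at 0 FPKM in all 6 libraries. The 11 genes together held 11 to 161 recovered input fragments per library. Rn7sl1 (ENSRNOG00000061096) was listed at 0 FPKM in each of the 6 libraries. Every cell uses this RNA, and the listed 0 does not show that it was scarce. Why it was listed at 0 was not tested. Its peaks lay within chr6:91456908-91457207 and were 270 nt long in control list 3 and knockdown lists 1 and 2, and 300 nt in knockdown list 3. The authors' p was 4.2e-06 in control list 3 and 2.5e-16, 1e-21 and 6.3e-13 in knockdown lists 1 to 3. Such values of different lists are on different scales and show no change between lists. The labels' protocols name different library kits for the input and the immunoprecipitated RNA. Their part in the low listed levels beside recurrent peaks was not tested.

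Spliceosomal and 7SK genes had peaks in few of their many copies. The 7SK family RF00100, whose RNA holds an elongation factor inactive, had a peak in 12 of 424 genes, and 1 of them, ENSRNOG00000058555, had it in all 4 lists. That gene stood at 170, 223 and 228 FPKM in control libraries and 259, 220 and 326 FPKM after knockdown, with overlapping groups. U2 genes (RF00004), which pair with the branch site of introns, had a peak in 8 of 86 copies and in 4 lists for 3. U1 genes (RF00003) had one in 5 of 220, U4 genes (RF00015) in 4 of 115, U5 genes (RF00020) in 3 of 13 and U6 genes (RF00026) in 1 of 919. The U2 gene ENSRNOG00000054769 (chr10:89562040-89562230) had the same 191 nt bounds in 4 lists. Its level split the controls, at 8.19, 18.8 and 466 FPKM, and was 279, 315 and 493 FPKM after knockdown. Control library 3 lay within the knockdown range, and control libraries 1 and 2 lay below it.

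A Y RNA gene and small nucleolar RNA genes completed the short class. Y RNAs bind the Ro protein, and 1 of 28 genes named RF00019 had a peak. ENSRNOG00000056608 (chr4:77459794-77459895) carried the shortest peak, 102 nt, in control list 3 and knockdown lists 1 and 2. It stood at 2951, 4136 and 3954 FPKM in control libraries and 2061, 1191 and 4729 FPKM after knockdown. Knockdown library 3, whose list lacked the peak, had the highest level of the 6. The 3 genes of the U3 family RF00012, a guide of ribosomal RNA processing, each overlapped a gene of the family RF01848, so 3 pairs of members counted the same peaks under 2 names. Another pair joined RF00416 and RF00560.

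The 2 most abundant long noncoding members were neighbours on chromosome 1. AC134224.3 (ENSRNOG00000062158, chr1:221158098-221158792, minus strand) had a peak of 695 nt over its whole recovered length in all 4 lists, with p listed as 0 in each. It stood at 4475, 3954 and 4108 FPKM in control libraries and 7649, 14169 and 7920 FPKM after knockdown. AC134224.1 (ENSRNOG00000062127) stood at 1851, 1836 and 1900 FPKM against 3180, 5995 and 3468 FPKM, and had peaks in 3 lists but not in knockdown list 2, the library in which its level was highest. For both genes the 2 groups did not overlap. The pair took 0.675 to 0.711% of recovered fragments in the controls and 1.26 to 2.75% after knockdown. The means of AC134224.3 were 4179 ± 267 and 9913 ± 3689 FPKM, and those of AC134224.1 were 1862 ± 33.5 and 4214 ± 1549 FPKM (SD, n = 3 each). On the log2 scale the changes were 1.19 (SE 0.48, limma adjusted p = 0.385) and 1.12 (SE 0.38, limma adjusted p = 0.347), so neither passed the threshold. Without knockdown library 2 the log2 change of AC134224.3 was 0.90.

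**Figure D3:**
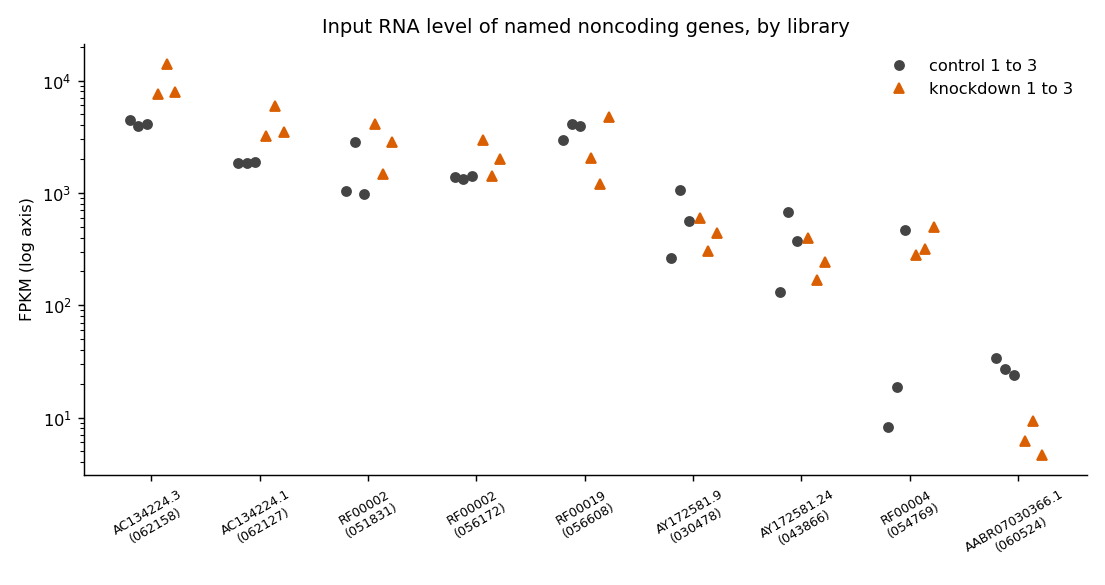
Points give FPKM (log axis) in 3 control (circles) and 3 knockdown (triangles) input libraries for 9 members, named with the last digits of their Ensembl ID. AC134224.3 lay between 3954 and 4475 FPKM in control libraries and between 7649 and 14169 FPKM after knockdown, a difference that did not pass the test, and the U2 gene RF00004 split the controls between 8.19 and 466 FPKM.

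Other long noncoding genes with a peak in 4 lists were AABR07068316.1, AABR07044364.2, AABR07041096.1 and AABR07053749.2. AABR07068316.1 (ENSRNOG00000019648) stood at 26.4, 66.8 and 66.4 FPKM in control libraries and 9.95, 4.35 and 39.8 FPKM after knockdown, and the groups overlapped. AABR07041096.1 (ENSRNOG00000054795) stood at 12.1, 8.22 and 7.75 FPKM against 3.42, 5.99 and 3.03 FPKM, with no overlap of the groups. AABR07044364.2 (ENSRNOG00000056189) is annotated antisense, and its peak in each of the 4 lists overlapped a peak of the protein-coding gene Prr3. In all, 18 of 554 noncoding peaks overlapped a coding peak of the same list, and 22 overlapped one in any list, 15 of them on the opposite strand. Reads of such pairs cannot be told apart unless counting used strand, which is not stated.

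Pseudogenes with a peak in 4 lists numbered 13, at mean levels from 0.920 FPKM (AABR07027854.1) to 36.5 FPKM (AC109958.1). AC109958.1 (ENSRNOG00000021960) stood at 47.3, 29.7 and 33.2 FPKM in control libraries and 39.7, 34.8 and 34.4 FPKM after knockdown. LOC100362999 (ENSRNOG00000004239) had 3, 2, 3 and 1 peaks in control list 3 and knockdown lists 1 to 3. AABR07072207.1 (ENSRNOG00000011155) held 273, 156 and 191 recovered fragments against 116, 226 and 176, and LOC299312 (ENSRNOG00000009609) 261, 233 and 235 against 195, 207 and 299. In AC109958.1 and in both of these the FPKM of the 2 groups overlapped. RGD1560341 (ENSRNOG00000015772) had its peak with the smallest p in knockdown list 3, 448 nt long. AABR07004269.3 (ENSRNOG00000051102) carried the longest pseudogene peak, 536 nt, in the same list. Names also showed a limit of the biotype. Of 23 members whose symbol occurs in the RefSeq table of assembly GRCr8, 19 are protein coding there, among them Ubb, Itgb5, Trrap and Top2b. Ubb, a polyubiquitin gene called a pseudogene in the deposited table, stood at 450.0 FPKM on average and had 1 peak, in knockdown list 3.

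Peaks in noncoding genes had about the length of the others, with fewer breaks. The median length was 173, 170.5, 173 and 164 nt in control list 3 and knockdown lists 1 to 3, against 179, 151, 151 and 181 nt in protein-coding genes. The difference averaged 4.62 nt over the 4 lists (SD 19.2, n = 4) and changed sign between them (exact sign-flip test, two-sided p = 0.75, where 1 in 8 is the smallest that 4 lists allow). Measured as genomic span the noncoding peaks were shorter in all 4 lists, with a mean difference of -19.75 nt and the smallest p the exact sign-flip test can give. One-block peaks, which cross no intron, made up 88.3% of noncoding and 65.9% of coding peaks. Peaks in short RNA genes covered the whole recovered gene in 33 of 85 cases with at least 10 fragments, against 1 of 251 in pseudogenes.

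**Figure D4:**
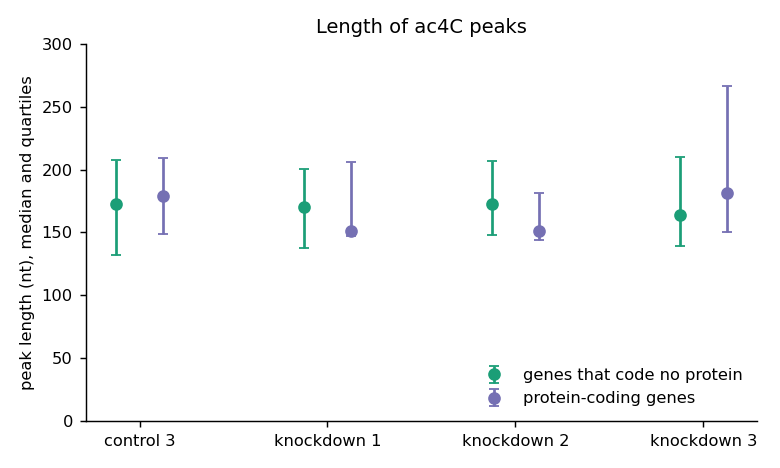
Points give the median peak length in nt and bars the quartiles, for noncoding and protein-coding genes in each of the 4 lists. The noncoding medians stay between 164 and 173 nt, while the coding medians move between 151 and 181 nt.

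Noncoding genes with a peak were listed at lower FPKM than coding ones. Their median of mean FPKM over 6 input libraries was 2.31, against 15.4 FPKM for coding genes with a peak. Of the 267, 86 had a mean under 1 FPKM, and 17 were listed at 0 in all 6 libraries (6 of 5430 coding genes). Without those listed at 0 the medians were 2.60 and 15.4 FPKM. By recurrence the median was 1.76, 2.31, 5.79 and 6.78 FPKM for genes in 1, 2, 3 and 4 lists, and 11.7, 16.9, 24.5 and 32.1 FPKM for coding genes. In each range above 0 FPKM a smaller share of noncoding than of coding genes had a peak. Above 0 and under 1 FPKM it was 2.71% against 4.33%. From 1 to under 10 FPKM the share was 8.94% of 1297 noncoding and 32.0% of 5421 coding genes. At 100 FPKM or more it was 16.0% of 81 and 80.9% of 554. Among genes listed at 0 FPKM the order was the other way, 0.267% against 0.117%. The classes differed at 1 FPKM or more: 39 of 1105 short RNA genes (3.53%) had a peak, 87 of 371 pseudogenes (23.5%) and 52 of 226 long noncoding genes (23.0%), against 44.3% of coding genes. The long noncoding class was mixed. It held 15 of 29 processed transcripts (51.7%), 32 of 156 lincRNAs (20.5%), 4 of 32 antisense (12.5%) and 1 of 9 sense intronic genes (11.1%). Of the processed transcript members, 8 are protein coding in the RefSeq table. FPKM is per length, and short genes hold fewer fragments at the same level.

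**Figure D5:**
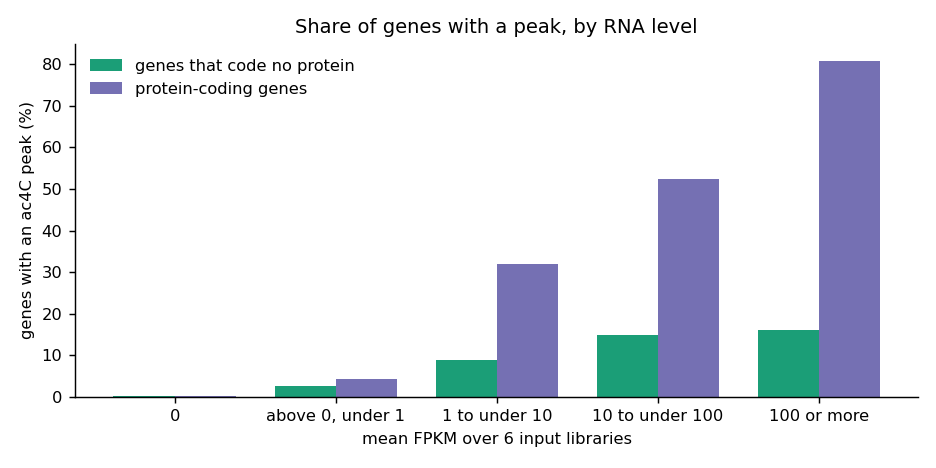
Bars give the percent of genes with an ac4C peak in any of the 4 lists (vertical axis) by mean FPKM over 6 input libraries, for noncoding and protein-coding genes. The noncoding share goes from 0.267% at 0 FPKM to 16.0% at 100 FPKM or more, and the coding share from 0.117% to 80.9%.

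In control list 3 and no knockdown list there were 40 genes (15.0% of 267), against 964 of the 5430 coding genes (17.8%). Of the 40, 14 (35.0%) had a peak in control list 1 or 2 outside the shared p. The most abundant were the U4 gene ENSRNOG00000052742, the snoRNA genes ENSRNOG00000054533 (RF00191) and ENSRNOG00000056397 (RF00099), Trrap and RGD1559821. The U4 gene stood at 242, 239 and 180 FPKM against 231, 345 and 220 FPKM, and its single peak had an authors' p of 0.037, at the bottom of the list. Both snoRNA genes also lay low in that list, at percentiles 94.5 and 93.6. In all 3 knockdown lists and not in control list 3 there were 5 genes (1.87%), and the share of coding genes was 1.86% (101). The 5 were AC117869.1, AABR07073039.1, LOC100362400, LOC680491 and LOC100361636, all called pseudogenes in the deposited table, though the RefSeq table has LOC100362400 and LOC100361636 as protein coding. Of the 5, 4 had a peak in control list 1 or 2, and LOC100362400 did not. LOC100362400 (ENSRNOG00000006283) stood at 12.5, 7.19 and 9.99 FPKM in control libraries and 2.49, 5.85 and 9.57 FPKM after knockdown, and its peaks were 149, 208 and 208 nt long. AABR07073039.1 (ENSRNOG00000028747) held 85, 66 and 64 recovered fragments against 33, 68 and 30. In both genes the FPKM of the 2 groups overlapped. Of the 38 genes in 4 lists, 37 had a peak in control list 1 or 2. These counts by gene were not made for coding genes.

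No noncoding gene with an ac4C peak appeared in the NAT10 lists. These held 0 of the 267 genes, and 0 of the 554 peaks overlapped a NAT10 peak by position. Among coding genes with an ac4C peak 585 of 5430 (10.8%) had a NAT10 peak, and 388 of 11286 peaks (3.44%) overlapped one. All 814 genes in the NAT10 lists were protein coding, so the lists hold no noncoding gene of any kind to compare with. The labels place the NAT10 libraries in neither virus group, so their cells may differ from those of the ac4C lists.

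The input RNA of the members did not change beyond the threshold. Of the 267 genes, 181 had a mean of at least 1 FPKM and were tested with limma among 13450 genes, and 0 members passed an adjusted p of 0.05, as did 0 of all genes (0.0%). At an unadjusted p under 0.05 there were 25 members (13.8%) against 12.5% of all genes tested, which is near the background. Of these 25, 16 were higher and 9 lower after knockdown, where 5.53% and 6.95% of all genes were. The groups did not overlap for 35 members (19.3%) against 20.6% of all genes: 22 were higher after knockdown, where 9.63% of all genes were, and 13 were lower, where 10.9% were. The median log2 change was 0.04 over the members and -0.01 over all genes. Short RNA genes stood at a median of 0.37 (39 genes). At the same unadjusted cutoff 9 of the 39 were higher and 0 were lower, beside 744 and 935 of all 13450 genes. Copies of the same family (RF00020, RF00100) are among the 9, and some of the 9 rest on few fragments. None passed the adjusted threshold. The summed smooth muscle markers moved between the same groups, and their part in these values was not tested.

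The 5 members with the smallest p are given as not passing. AABR07030366.1 (ENSRNOG00000060524, a long noncoding gene) stood at 33.8, 27.0 and 23.7 FPKM in control libraries and 6.20, 9.22 and 4.59 FPKM after knockdown. Its log2 difference was -1.96 (SE 0.26, limma adjusted p = 0.155). AABR07035338.1 stood at 10.5, 10.8 and 11.5 FPKM against 20.4, 18.0 and 19.5 FPKM, a log2 difference of 0.76 (SE 0.15, limma adjusted p = 0.227). The groups of both genes were apart by more than their spread. The RF00002 gene ENSRNOG00000053888 rested on 5, 0 and 1 fragments in the controls and 9, 26 and 7 after knockdown, and the U5 gene ENSRNOG00000059280 on 2, 4 and 6 against 14, 17 and 9. AC097153.2, a pseudogene, held 50, 55 and 47 fragments against 15, 21 and 23, a log2 difference of -0.97 (SE 0.24, limma adjusted p = 0.278).

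Of 58 names of well-known noncoding RNAs, 5 were found by symbol in the deposited table: Tug1, Snhg11, Rn7sl1, Rpph1 and Terc. The names also covered 7SK, U1, U2, U4 and U6 RNA, which that table lists under family names. Their peaks are given above, so a name not found does not mean that the RNA or its peak was absent. Only Rn7sl1 among these 5 had a peak.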

How the data were processed

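Members and gene lists were chosen with earlier results of these data known. The authors deposited FPKM per Ensembl gene for 6 input libraries, and 1 ac4C peak list per library with a p-value per peak; the sources used here do not say whether that p is raw or adjusted. The NAT10 lists hold the authors' log2 enrichment and p-values, per the file headers. Per the submitters' processing notes, the tools included HISAT2 2.1.0, HOMER 4.10.4, cutadapt 2.5, DESeq2 and featureCounts 1.6.3; rn6 is the rat build among those listed. Coordinates follow the lists, counted from 1. The authors' p served only to rank or filter peaks within a list.

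FPKM values were whole multiples of 1 fragment for 21401 of 21401 genes above 0, taking the smallest length from 20 to 130000 nt, and no shorter than the gene's longest peak, at which every library was whole within 1e-06 fragment plus 2e-08 of the count. Of 7556 genes with a single peak at the shared p of control list 1, 5153 had that peak's length as recovered length, and in the other 2403 the peak was shorter. For few fragments the length may be too short. Without the bound all 221 members with at least 10 fragments gave the same length. Immunoprecipitated depth is unknown. The main test was limma (version 3.58.1, R 4.3.3), two-sided, with a trended variance, run on log2(FPKM + 1) where mean FPKM reached 1 and adjusted over all such genes by Benjamini-Hochberg; that scale understates changes of low genes. The fit was also run on counts simulated with a fixed spread. The real libraries need not share that spread, so the run does not show the power of the fit here. Python 3.11.15 did the rest.

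Genes were named by rule: a peak in all 4 lists (up to 30), the 8 highest FPKM, the most, longest and shortest peaks, the 5 smallest p, and the 5 most abundant on 1 side. Alternatives covered filters, pseudocounts, scaling, overlap rules and each library left out. Peak sequences were not analysed here.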

Additional observations from a re-analysis of the deposited data

How the results depend on the processing

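With 3 libraries a group and 1 control peak list, small differences could not be shown. Peak shares moved where classes were dropped: without pseudogenes they were 2.34%, 2.78%, 2.82% and 2.23% in control list 3 and knockdown lists 1 to 3, and without short RNA genes 3.05%, 4.17%, 3.53% and 2.69%, since fewer peaks were counted. At an authors' p of at most 0.001 the shares of knockdown lists 2 and 3 were 6.78% and 2.77%; the cause was not tested. The length difference became -19.75 nt by genomic span, and ran from -1.17 to 11.8 nt with 1 list left out, below 0 without knockdown list 1 or 2. The median FPKM of genes with a peak, taken from the same-numbered input library, was 2.91, 3.19 and 3.69 in knockdown lists 1 to 3, and from the mean of 6 libraries 3.46, 2.30 and 4.82. Peaks found in every list used ran from 105 to 146 with 1 list left out. With 1 input library left out, 0 to 1 genes passed the adjusted threshold (1 without control library 3 and 1 without knockdown library 2, neither a member), 829 to 2581 genes and 10 to 38 members were at an unadjusted p under 0.05. The 7 genes followed kept their direction in 91 of 91 fits. Their input groups did not overlap, so leaving out a library or changing pseudocount, filter or model could not reverse the sign. The count therefore gives no support to these changes. A voom fit on recovered fragments, chosen after seeing the data, called 0 genes. Deviations of same-number libraries from their group means had correlations of -0.21, -0.28 and 0.18. With 3 libraries a group these correlations are tied to each other, so they cannot show whether replicate numbers pair the libraries. In the fit with the replicate block 0 genes passed, with 1176 genes and 18 members at an unadjusted p under 0.05. The unadjusted p of AC134224.3, 0.041, was 0.473 without a filter on low genes and 0.00401 without the trend.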
